A study of Mus musculus with 8 samples.

Results

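Apoe and 5 other genes of sterol transport and sterol synthesis (Abca1, Abcg1, Hmgcs1, Sqle and Idi1) were followed in single cells of the long-term hematopoietic stem cell gate (LT-HSC) in aged mice. These 6 genes, of 18174 gene symbols in the tables, were listed by name and chosen by the UMI counts of Apoe seen earlier in these libraries, in the cells and on barcodes 17 and 20, so the level of Apoe is given as a description. The stem cells came from the bone marrow of untreated, wild-type, male C57BL/6J mice, 18 months old, and were sorted as Lin-, CD150+, CD48-, CD34-, Kit+ and Sca1+. They were split by surface protein into Dlk1+ and Dlk1- cells, with 4 libraries of each sort, 96 wells to a library, replicates 1 and 2 on plate 5 and replicates 3 and 4 on plate 6. Marrow was pooled over several bones, and which mice stand behind which library is not given, so p-values here measure the spread between these libraries, which may be technical. RNA was counted by CEL-Seq2, a plate-based method that tags the 3' end of each polyadenylated transcript with a barcode for its well and a random molecular identifier (UMI). Each transcript thus gives at most 1 UMI whatever its length, and levels are given as counts per 1000000 UMIs of the library (CPM).

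Apolipoprotein E is the protein part of lipoproteins that carry cholesterol and bind receptors of the LDL receptor family. It is made in large amounts by liver, macrophages and astrocytes, and it can also act at the surface of the cell that makes it. Abca1 and Abcg1 move cholesterol out of the cell onto such particles and are switched on by the sterol-sensing LXR receptors, whereas Hmgcs1, Idi1 and Sqle are enzymes of cholesterol synthesis that are switched on by SREBP2 when sterols are scarce. In blood stem and progenitor cells of mice, Apoe, Abca1 and Abcg1 are known to restrain proliferation by removing membrane cholesterol.

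On genome build GRCm38.p6 the RefSeq annotation places the protein-coding gene Apoe at chr7:19696244-19701310. Abca1 is at chr4:53030789-53159988 and Abcg1 at chr17:31057694-31117984. Of the synthesis enzymes, Hmgcs1 is at chr13:119690351-119708260, Idi1 at chr13:8885606-8892396 and Sqle at chr15:59315092-59331193. RefSeq promoter windows of 3 members that differ in known control are shown, as the 150 bases just before the annotated start, 5′ to 3′. For Apoe this is 1 of 3 annotated starts, minus strand, chr7:19699189-19699338. Those of Hmgcs1 (chr13:119690201-119690350) and Idi1 (chr13:8885456-8885605) are on the plus strand. Capitals mark matches to TCACNCCAC, the letters of a sterol regulatory element, and to the CCAAT box (read as ATTGG on the other strand).
Apoe: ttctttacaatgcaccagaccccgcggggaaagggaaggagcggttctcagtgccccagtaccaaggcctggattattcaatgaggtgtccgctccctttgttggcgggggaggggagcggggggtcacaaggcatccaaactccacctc
Hmgcs1: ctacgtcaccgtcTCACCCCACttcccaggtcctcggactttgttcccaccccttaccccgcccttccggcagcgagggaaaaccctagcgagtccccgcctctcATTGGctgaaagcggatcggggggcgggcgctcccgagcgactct
Idi1: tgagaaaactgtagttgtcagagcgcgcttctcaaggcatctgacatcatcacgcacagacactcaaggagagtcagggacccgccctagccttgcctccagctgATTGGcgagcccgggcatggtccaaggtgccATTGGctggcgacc
Searched on both strands, the Hmgcs1 window held 1 match to TCACNCCAC, 137 to 129 bases before the start, and 1 CCAAT box, 45 to 41 bases before it. The Idi1 window held 2 CCAAT boxes and no match to TCACNCCAC, and the Apoe window held neither. Of all 32851 RefSeq mouse windows of this length, 0.639% hold TCACNCCAC and 24.5% hold CCAAT. The matches describe these letters only.

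After barcodes 17, 20 to 24 and 29 to 32 were left out, 541 barcodes with at least 1000 transcripts remained as cells, 220 Dlk1+ and 321 Dlk1-. The libraries held 26 to 96 cells and 38488 to 496831 UMIs, with medians of 1295.5 to 5521 UMIs per cell, and no barcode's counts were identical in any pair of libraries. Dlk1+ replicates 2 and 3 stood apart with 27 and 26 cells against 81 and 86 in the other Dlk1+ libraries, and only 4 cells of replicate 3 reached 2000 UMIs. Dlk1- replicate 2 also held few cells, 36 against 94 to 96 in the other Dlk1- libraries. Dlk1 RNA was at 364 to 648 CPM in Dlk1+ and 4.03 to 50.9 CPM in Dlk1- libraries, as sorted. All 10 LT-HSC markers were detected, with a sum of 1689 to 2678 CPM per library. A single barcode of Dlk1+ replicate 4 held 1941 of that library's 1955 UMIs of 7 myeloid marker genes. This barcode, with 36327 UMIs, was kept among the cells. The myeloid marker Prtn3 was left out of that count. It had 807 UMIs, 89, 23, 0 and 236 in Dlk1+ replicates 1 to 4 and 129, 44, 111 and 175 in Dlk1- replicates 1 to 4.

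Apoe was among the abundant transcripts of these cells and the other members were rare. Its 2030 UMIs were 265, 165, 63 and 350 in Dlk1+ replicates 1 to 4 and 322, 173, 285 and 407 in Dlk1- replicates 1 to 4. Its mean CPM over the 8 libraries ranked 106 among 18174 symbols, while Abca1, the next member, ranked 4529. Scaled to library size, Apoe was at 721, 1655, 1637 and 777 CPM in Dlk1+ replicates 1 to 4 and at 648, 789, 618 and 864 CPM in Dlk1- replicates 1 to 4. Dlk1+ replicates 2 and 3, the libraries with the fewest cells, were therefore well above all others. Replicate 3 also had the lowest median UMIs per cell of the 8 libraries, 1295.5. Replicate 2 had the next lowest, 3403, against 3933.5 to 5521 in the others. In Apoe CPM the other 2 Dlk1+ libraries lay inside the range of the Dlk1- libraries.

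**Figure D1:**
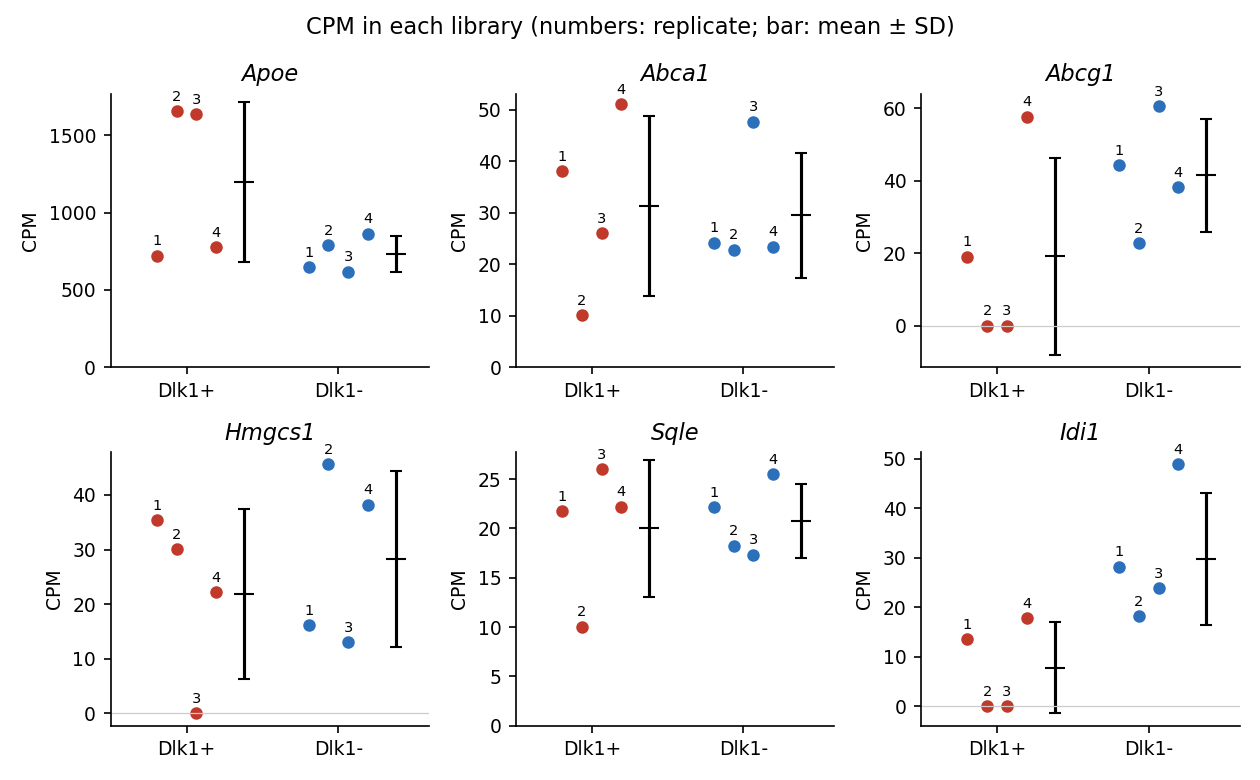
CPM of each member in each library, with the replicate number above each point and the mean ± SD of the 4 libraries of a sort as a bar. Apoe in Dlk1+ replicates 2 and 3 (1655 and 1637 CPM) lies above the other 6 libraries (618 to 864 CPM), while Abcg1 and Idi1 have 0 UMIs in those same 2 libraries.

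Apoe was higher in Dlk1+ libraries on average, but it was not called as different between the sorts. The mean was 1198 ± 518 CPM (SD, n = 4) in Dlk1+ and 730 ± 116 CPM (SD, n = 4) in Dlk1- libraries. The fit, which works on log values after rescaling of library sizes, gave a fold of 1.47 with a 95% interval of 1.00 to 2.17 (log2 fold change 0.56, SE 0.27, limma-voom adjusted p = 0.751). In this comparison 0.0353% of the 5666 genes tested were called, 2 genes (Dlk1 and Timp3), and 368 had an unadjusted p under 0.05. Groups did not overlap in 3.14% of the genes tested, and those of Apoe overlapped. The direction of Apoe stayed positive in 19 of 19 other settings, but its size did not. Without Dlk1+ replicates 2 and 3 the log2 fold change was 0.10 (adjusted p = 0.949), and with each cell thinned to 2000 UMIs it was 0.40 (adjusted p = 0.883).

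The level of Apoe differed between depth classes, but not in the same order in every library. Over all cells the count per cell went from 1.86 UMIs in cells of 1000 to 2000 UMIs to 3.01 at 2000 to 4000, 4.24 at 4000 to 8000 and 5.25 in deeper cells. Relative to all UMIs, the deepest class was lower than the class of 4000 to 8000 UMIs in 7 of 7 libraries (325 to 892 against 615 to 1099 CPM), with 1 to 9 cells of a library in the deepest class. The class of 2000 to 4000 UMIs was higher than that of 4000 to 8000 in 4 of 7 libraries, and the class of 1000 to 2000 was higher than that of 2000 to 4000 in 3 of 8.

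The values of the sorts lay furthest apart in shallow cells. Over all cells of a sort Apoe was at 1605 CPM in Dlk1+ against 514 CPM in Dlk1- at 1000 to 2000 UMIs, where 14 and 53 of the 70 Dlk1+ UMIs came from replicates 2 and 3. It was at 1181 against 729 CPM at 2000 to 4000 UMIs, 801 against 772 CPM at 4000 to 8000 and 467 against 509 CPM in deeper cells. In the class of 2000 to 4000 UMIs, the Dlk1+ libraries had 966, 1989, 1090 and 954 CPM of Apoe and the Dlk1- libraries 952, 929, 449 and 801 CPM, with 4 cells behind the value of Dlk1+ replicate 3. At this depth Dlk1+ replicate 3 was close to the other Dlk1+ libraries and Dlk1+ replicate 2 was still the highest. The part of depth in the difference between sorts was not tested beyond these values.

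**Figure D2:**
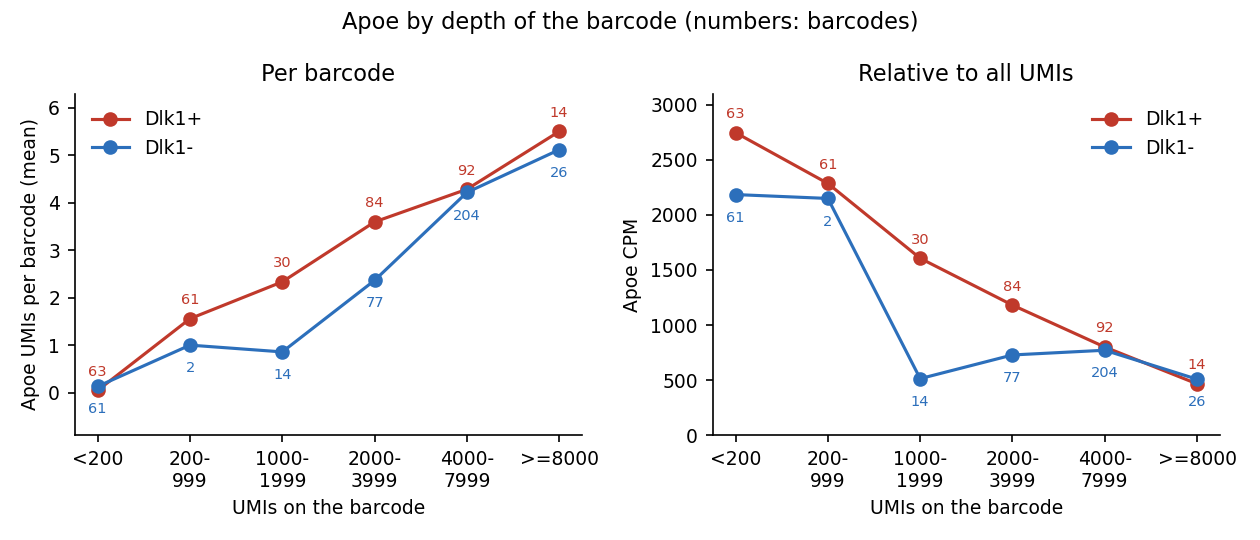
Mean Apoe UMIs per barcode (left) and Apoe CPM (right) in classes of total UMIs, for own-half barcodes of both sorts, with the number of barcodes beside each point. Over both sorts Apoe per barcode goes from 0.0887 UMIs in near-empty wells to 5.25 in the deepest cells, while Apoe CPM goes down over all classes in Dlk1+ but from 514 up to 772 and down to 509 CPM over the 4 classes of cells in Dlk1-.

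Wells that held almost no RNA could hold few Apoe UMIs in any case, so their counts are a description. Among own-half barcodes with under 200 UMIs, 124 barcodes had 11 Apoe UMIs in all, or 0.0887 per barcode. That is 2312 CPM of their few UMIs, above the mean of 964 CPM over the cells of the 8 libraries. Most of them belonged to Dlk1+ replicate 2 (57 barcodes, 3 Apoe UMIs) and Dlk1- replicate 2 (60 barcodes, 7 Apoe UMIs). The cells of those libraries carried 6.11 and 4.81 Apoe UMIs each. Between 200 and 1000 UMIs, 63 barcodes not kept as cells had 97 Apoe UMIs (2281 CPM). Of these, 56 barcodes and 93 Apoe UMIs were of Dlk1+ replicate 3.

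Over single cells Apoe was widespread and uneven. With every UMI counted, 460 of 541 cells (85.0%) had at least 1 Apoe UMI and the highest cell had 28. To compare cells at a fixed depth, the 497 cells with at least 2000 UMIs were thinned to 2000 UMIs each. They then had a mean of 1.65 and a median of 1 Apoe UMI, with 152 cells (30.6%) at 0, 45 cells (9.05%) at 5 or more and a highest cell of 13. The 44 shallower cells are not part of these values, and 22 of them came from Dlk1+ replicate 3.

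In the mean over libraries, the spread of Apoe exceeded that of each stem cell marker. The variance of the thinned counts divided by their mean, which counting alone would put near 1, was 1.75, 2.46 and 2.59 in Dlk1+ replicates 1, 2 and 4 and 2.26, 1.76, 1.43 and 1.96 in Dlk1- replicates 1 to 4. Its mean over the 7 libraries was 2.03. The 10 stem cell markers had means from 0.98 (Mecom) to 1.37 (Hlf), and Dlk1 was at 2.01. Hlf was the marker nearest Apoe in level, at 1.16 thinned UMIs per cell against 1.87 for Apoe. Its ratio was 1.09 to 1.65 over the libraries, which overlaps the 1.43 to 2.59 of Apoe. Kit, the stem cell factor receptor, at 0.92 thinned UMIs per cell, had a mean ratio of 1.09. The ratio can grow with the mean where cells differ, and Apoe had the highest mean of these genes, so these values are a description. Mean ratios of the other 5 members were 1.02 to 1.17, at 0.04 to 0.08 UMIs per cell.

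**Figure D3:**
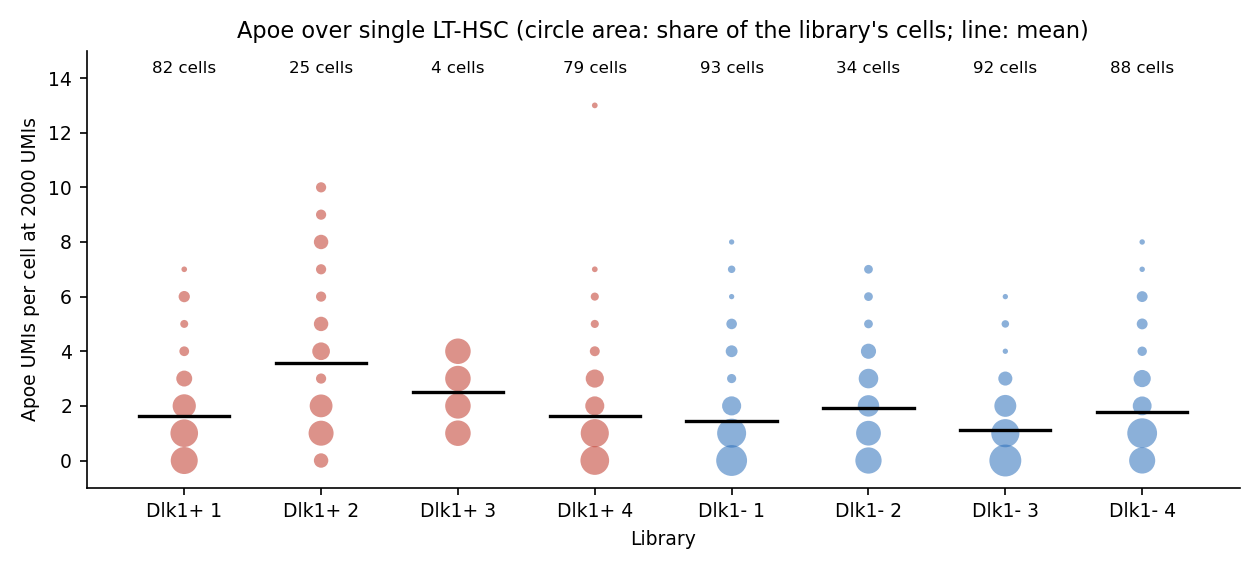
Apoe UMIs per cell after thinning to 2000 UMIs, for each library, with circle area giving the share of the library's cells at that value and a line at the mean. In each library except Dlk1+ replicates 2 and 3, 26.1% to 39.1% of the cells are at 0 and the highest cells have 6 to 13 UMIs.

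At 2000 UMIs the share of cells with Apoe was 72.0%, 92.0%, 100% and 68.4% in Dlk1+ replicates 1 to 4, where the 100% is 4 of 4 cells (95% Wilson interval 51.0% to 100%). It was 63.4%, 73.5%, 60.9% and 73.9% in Dlk1- replicates 1 to 4. The ranges overlapped. The means were 83.1% ± 15.3 and 67.9% ± 6.75 (SD, n = 4 each), and their difference of 15.2 percentage points was not past the threshold in a two-sided exact permutation test over 70 assignments (p = 0.171, 0.4 after adjustment over 7 tests, smallest possible 0.0286). The difference was 13.5 percentage points on plate 5 and 16.8 on plate 6, the latter resting on the 4 cells of Dlk1+ replicate 3. It was 9.51 points without Dlk1+ replicate 3 and 9.87 with another seed for the thinning. For the variance-to-mean ratio the test was not passed either (2.26 ± 0.45 in 3 Dlk1+ libraries, 1.85 ± 0.35 in 4 Dlk1- libraries, exact permutation p = 0.229, adjusted 0.4). That difference was 0.414 and turned to -0.0420 when cells were thinned to 1000 UMIs.

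Apoe in the cells stood beside few transcripts of other liver genes. On barcodes 17 and 20 of the Dlk1- libraries, which lie outside their own wells, Apoe made up 20093 CPM (156 of 7764 UMIs), and 434 UMIs of liver markers stood beside it, or 2.78 per Apoe UMI. In the Dlk1- cells there were 40 liver marker UMIs to 1187 Apoe UMIs, or 0.0337 per Apoe UMI. Albumin (Alb) had 69 UMIs on those 2 barcodes and 2 in all 541 cells, transthyretin (Ttr) 69 and 0, and the antiprotease Serpina1a 80 and 1. Of the 79 liver marker UMIs in the cells, 35 were of Trf and 19 of Afp. The 5 other members had 15 UMIs on barcodes 17 and 20 of those libraries.

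The macrophage markers that could be counted were near 0, and those of stroma and endothelium were low but present. Of 12 macrophage markers 8 were in the tables, with 25 UMIs in all cells and at most 19.99 CPM per library. Cd68 had 8 of these UMIs, Mertk 7 and Fcgr3 6, and the defining gene Adgre1 was at 0. Csf1r, C1qa, Lyz2 and Cd5l were the listed markers without an entry, so no sum covers them. The summed macrophage markers ranged from 0 to 19.99 CPM in Dlk1+ and 2.12 to 13.7 CPM in Dlk1- libraries. Stroma markers (10 of 11 in the tables) summed to 75.5 to 221 CPM in Dlk1+ libraries, highest in replicate 2, and 67.2 to 76.4 CPM in Dlk1- libraries, and endothelium markers to 26.0 to 91.3 CPM over all libraries. The part of either in the level of Apoe was not tested. The 42 cells with at least 10 Apoe UMIs, found in 7 of the 8 libraries, held 3 macrophage UMIs and 11 liver marker UMIs beside 530 Apoe UMIs. Against the other 499 cells they had 13.2 and 9.26 CPM of macrophage markers, 48.3 and 28.6 CPM of liver markers, 118.5 and 64.4 CPM of endothelium markers and 65.8 and 82.5 CPM of stroma markers. Megakaryocyte markers were at 496 and 325 CPM and LT-HSC markers at 2568 and 2239 CPM, without a test. Erythroid markers were at 48.3 and 79.1 CPM, B cell markers at 8.78 and 27.3 CPM and myeloid markers at 338 and 1132 CPM. The cut at 10 Apoe UMIs was made without thinning and so favours deep cells. The smallest cell above it had 2547 UMIs, against 1004 below it. Dlk1+ replicate 3, the library without such a cell, had at most 5 Apoe UMIs in a cell.

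The other apolipoprotein genes of the Apoe cluster were at or near 0 in the cells. Apoc1 had 1 UMI in all cells, and Apoc2 and Apoc4 had 0. The flanking housekeeping genes Clptm1 and Tomm40 were at 73.3 ± 39.3 and 48.7 ± 12.6 CPM in Dlk1+ and 47.9 ± 8.0 and 45.2 ± 8.4 CPM in Dlk1- (SD over 4 libraries). Of 10 neighbours, 3 including Apoe could be tested and 0 were called.

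The efflux pumps were far rarer than Apoe. Abca1 had 89 UMIs, at 38.1, 10.0, 26.0 and 51.1 CPM in Dlk1+ replicates 1 to 4 and 24.2, 22.8, 47.7 and 23.3 CPM in Dlk1- replicates 1 to 4. The sorts overlapped over most of their range (log2 fold change 0.39, SE 0.40, limma-voom adjusted p = 0.877). Abcg1 had 106 UMIs, at 19.0, 0, 0 and 57.7 CPM in Dlk1+ and 44.3, 22.8, 60.7 and 38.2 CPM in Dlk1- libraries. Both Dlk1+ libraries without an Abcg1 UMI were those with the fewest cells. There 0 of 27 cells allows a share of up to 11.1% of cells with a UMI and 0 of 26 a share of up to 11.5%. Its log2 fold change was -1.01 (SE 0.53, 95% interval -2.12 to 0.10, limma-voom adjusted p = 0.767) and ranged from -1.93 to -0.16 over 18 other settings, the value nearest 0 being that without Dlk1+ replicates 2 and 3.

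The synthesis enzymes lay a little lower. Hmgcs1, which makes HMG-CoA, had 68 UMIs, at 35.4, 30.1, 0 and 22.2 CPM in Dlk1+ and 16.1, 45.6, 13.0 and 38.2 CPM in Dlk1- libraries, with overlapping sorts (log2 fold change 0.09, SE 0.46, limma-voom adjusted p = 0.985). Its sign turned in 5 of 18 other settings. Sqle, the squalene epoxidase, had 55 UMIs and the narrowest range of the 5 rarer members, 21.8, 10.0, 26.0 and 22.2 CPM in Dlk1+ and 22.1, 18.2, 17.3 and 25.5 CPM in Dlk1- libraries. Idi1, the isopentenyl diphosphate isomerase, had 65 UMIs, at 13.6, 0, 0 and 17.8 CPM in Dlk1+ and 28.2, 18.2, 23.8 and 48.8 CPM in Dlk1- libraries. It was the only member whose sorts did not overlap, at most 17.8 CPM in Dlk1+ against at least 18.2 CPM in Dlk1-. Those values rest on 8 and 4 UMIs, 2 Dlk1+ libraries were at 0, and groups did not overlap in 2.09% of all 17884 genes with a count.

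Sqle and Idi1 were too rare for the low-count filter, which 4 of the 6 members passed, so their differences come from a fit without that filter, in which the median of all genes lay at 0.24. There the log2 fold change of Sqle was -0.03 (SE 0.47) and that of Idi1 -1.29 (SE 0.53, unadjusted p = 0.0188, limma-voom adjusted p = 0.548), and neither was called. Each of these 5 rarer members was seen in 4.23% to 7.85% of cells at 2000 UMIs and in 9.06% to 15.9% of cells with all UMIs, never with more than 3 UMIs in a cell. None of the 5 passed the test between sorts for the share of cells at 2000 UMIs (adjusted exact permutation p of 0.4 to 0.714). Unadjusted, 4 other settings reached p = 0.0286, the smallest the exact permutation test allows: Idi1 with another seed (-5.75 percentage points) and with all UMIs (-8.08), Sqle at 1000 UMIs (-3.71) and Abcg1 without Dlk1+ replicate 4 (-7.08).

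**Figure D4:**
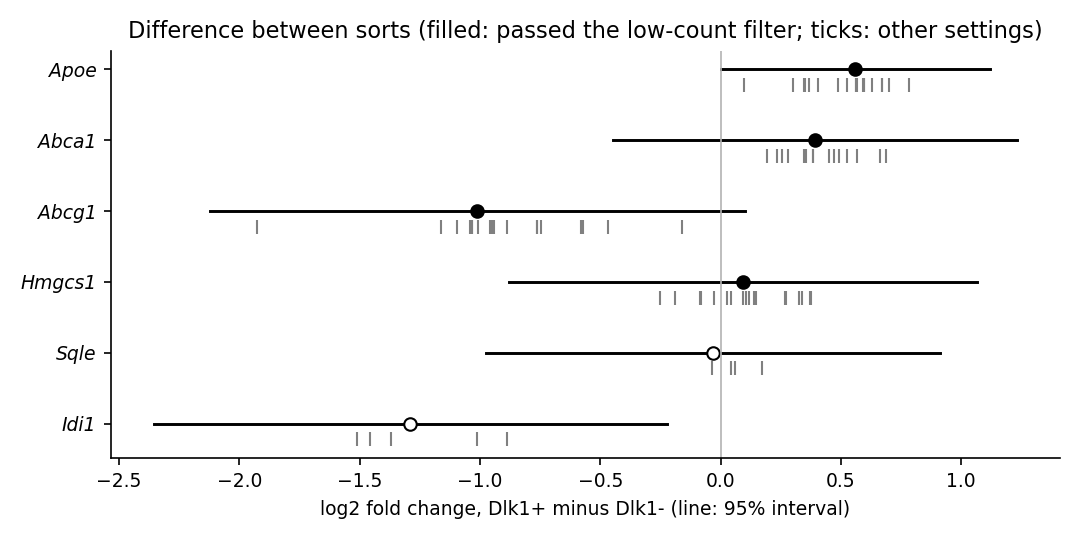
Log2 fold change of each member, Dlk1+ minus Dlk1-, with its 95% interval as a line; filled points passed the low-count filter, open points come from the fit without it, and grey ticks are the other settings. The ticks of Apoe reach from 0.10 to 0.78 and those of Hmgcs1 lie on both sides of 0.

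The wider pathway was expressed at low levels in both sorts. All 21 genes of cholesterol synthesis had UMIs, and their sum was 364 to 512 CPM in Dlk1+ and 373 to 528 CPM in Dlk1- libraries, less than Apoe alone in each library. Among the most abundant were Lbr, a sterol reductase that also anchors chromatin (56.5 ± 42.0 and 83.1 ± 4.4 CPM), and Msmo1 (40.0 ± 9.0 and 33.7 ± 17.5 CPM, Dlk1+ and Dlk1-, SD, n = 4 each). Of 8 tested, 0 were called, with a median log2 fold change of 0.11 against -0.04 over all genes tested.

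Sterol sensing and uptake was led by Srebf2, the gene of SREBP2 (110 ± 28.0 CPM in Dlk1+ and 100.1 ± 19.5 CPM in Dlk1-), by the lipoprotein receptor Vldlr (124 ± 57.8 and 83.2 ± 55.9 CPM) and by Npc2, which moves cholesterol out of lysosomes (94.2 ± 35.5 and 110 ± 8.9 CPM, SD, n = 4 each). Of 10 genes tested 0 were called (median -0.08). In the list of efflux and storage, the LXR gene Nr1h2 (125 ± 56.8 and 95.8 ± 7.8 CPM) and the cholesteryl ester hydrolase Nceh1 (126.5 ± 44.8 and 88.7 ± 34.2 CPM, SD, n = 4 each) followed Apoe. The other LXR gene, Nr1h3, named after its value was seen, had 4 UMIs. Of 8 genes tested in this list 0 were called (median 0.05). An unadjusted p under 0.05 was reached by Srebf1 (log2 fold change -1.11) and Vldlr (0.81) in the former list and by Apoe, Nceh1 (0.69) and Osbp (-1.16) in the latter. Srebf1 and Osbp, named after their values were seen, had 0 UMIs in Dlk1+ replicates 2 and 3.

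Correlates of Apoe over cells were weak. Pearson's r of log2(thinned UMIs + 1) was taken within each of the 7 libraries with at least 20 cells of 2000 UMIs (493 cells), for 2528 genes with a UMI in at least 10% of cells, and averaged over libraries. Ranked on the 4 libraries of plate 5 (234 cells), the highest were the splicing factor Mbnl2 (mean r = 0.30), the helicase Ddx5 (0.28), the MHC class I chain H2-D1 (0.27), the ribosomal pseudogene Rpl9-ps6 (0.27), Txnip (0.26), the ribosomal protein Rps21 (0.26), the MHC class I light chain B2m (0.26), Epb41l4b (0.26), Gstm1 (0.25) and Cnot6l (0.25). The lowest were Hmgb2 (-0.27), Stra13 (-0.24) and Gm37746 (-0.23). Libraries had equal weight, so the 25 and 34 cells of Dlk1+ and Dlk1- replicate 2 counted as much as the 82 and 93 of replicate 1. Mbnl2 was at 0.40 and 0.45 in the former against 0.11 and 0.24 in the latter. Rpl9-ps6 was at 0.48 and 0.46 against 0.006 and 0.13. For H2-D1 (0.18 and 0.38 against 0.38 and 0.14) the small library was not the higher in Dlk1+. In the 3 libraries of plate 6 (259 cells) the mean r of the 10 highest was 0.07, down from 0.27, and 8 of the 10 were positive, against 58.9% of all genes ranked. B2m (0.21), Rps21 (0.19) and Txnip (0.15) kept the largest values there, and none of the 10 was among the 10 highest of plate 6. Cells of a library share its depth and handling, and the choice of the highest of many genes favours large values on plate 5. Thinned without the satellite-like transcripts Gm10800 and Gm26870, 1 of the 10 stayed among the 10 highest. The plate 5 mean r was then 0.23 for Mbnl2, 0.22 for both Rps21 and B2m, 0.20 for Epb41l4b and 0.19 for Ddx5. It was 0.13 for H2-D1, 0.12 for Rpl9-ps6, 0.11 for Txnip and 0.02 for Cnot6l. Of the 10, only Gstm1 had a higher value than with these transcripts, 0.29 against 0.25.

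**Figure D5:**
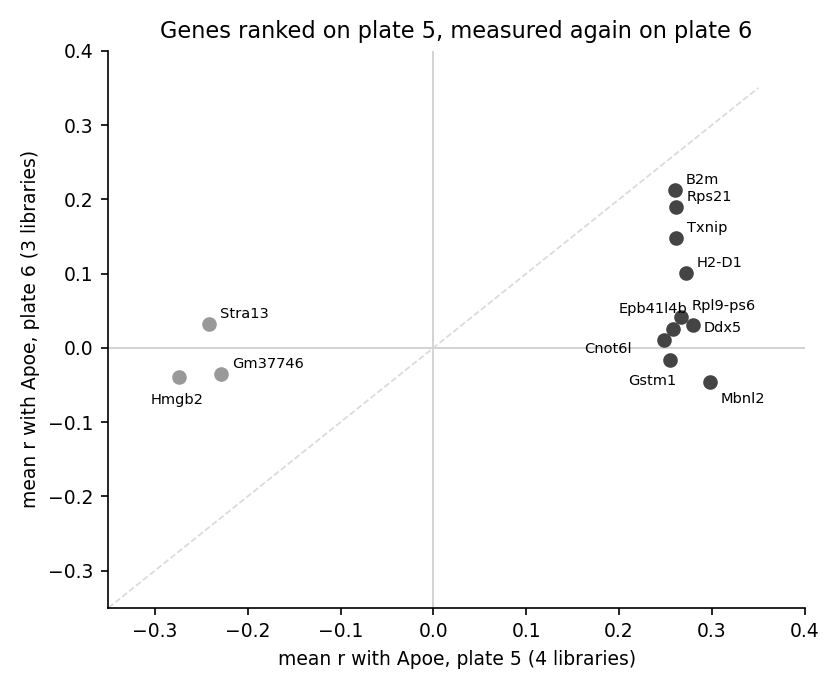
Mean within-library r with Apoe of the 10 highest (dark) and 3 lowest (light) genes of plate 5, on plate 5 (x axis) and on plate 6 (y axis), with a dashed line where both are equal. B2m, Rps21 and Txnip lie at 0.15 to 0.21 on plate 6, and the other genes lie between -0.05 and 0.10.

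Correlations of Apoe with general properties of the cells were weak. Its mean r over the 7 libraries was 0.23 with the UMIs of ribosomal protein genes and -0.19 with the satellite-like transcripts Gm10800 and Gm26870. These 2 transcripts took 9.21% to 27.9% of a library's UMIs. At a fixed total of 2000 UMIs a cell with more of them has fewer UMIs left for any other gene. This fixed total can lower r, and its part in the value of -0.19 was not tested. The same fixed total bears on the r with ribosomal protein genes, and its part there was not tested. Mean r was -0.13 with the cell's depth before thinning, -0.04 with mitochondrial UMIs, 0.17 with the summed LT-HSC markers and 0.09 with summed cholesterol synthesis. With its partners in efflux it was -0.04 (Abca1) and -0.08 (Abcg1), in counts too sparse for more than a description.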

How the data were processed

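The 8 tables deposited by the authors hold estimated transcript counts per gene and cell barcode, not scaled for depth; BWA 0.6.2-r126 and build mm10 are named in the submitters' processing notes, and other steps are not given in the sources used here. Inverting the usual correction for collisions among 4096 UMIs gave whole UMI counts (largest distance 3.64e-12, tolerance 1e-06). The members and gene lists were chosen with earlier results of these data known. Cells were barcodes 1 to 96 (Dlk1+) or 97 to 192 (Dlk1-) with at least 1000 transcripts, without the 10 barcodes 17, 20 to 24 and 29 to 32; no doublet caller was run.

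Estimated counts were summed per library, rounded, scaled by a trimmed mean of M values (30% and 5% trimmed) and tested with limma-voom (limma 3.58.1, R 4.3.3). Genes tested had 15 counts in all and, in at least 4 libraries, the CPM that equals 10 counts at the median library size. A smaller library met this CPM with fewer counts. Benjamini-Hochberg adjustment ran over all 5666 genes, with a threshold of 0.05. The edgeR test planned as the main one and the DESeq2 alternative were not run, because an automatic check could not read the tables' unit. In simulated libraries of 5666 genes with 200 changed, 3.5% were called at a true 2-fold difference, 77% at 4-fold and 95% at 8-fold.

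Shares and spread used cells thinned to 2000 UMIs (Python 3.11.15, numpy 2.4.6) and exact permutation tests over libraries (scipy 1.17.1). Intervals are 95% Wilson intervals and a count of 0 is read as at most 3 cells; both cover counting error only. Genes named are the members, the 3 most abundant and any called gene of each sterol list and of the Apoe neighbours, and the 10 highest and 3 lowest correlates on plate 5. 1 gene that this rule names is not reported here. Of the tables' symbols, 82.5% matched RefSeq. Positions and promoters are from its GRCm38.p6 annotation. Abcg1 and Sqle had no entry among the promoter windows used, and the window of Abca1, which held neither motif, is not shown. Alternatives are listed in the closing section, 2 of them chosen after the data were seen.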

Additional observations from a re-analysis of the deposited data

Results flagged for a closer look

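Of 31 sets of 4 libraries looked at, 1 had a library far from the others, where chance gives about 1 in 20: Abca1 in Dlk1- replicate 3 was at 47.7 CPM, and the other Dlk1- libraries were at 22.8 to 24.2 CPM. That value rests on 22 UMIs.

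A signal of Apoe lay on barcodes outside the sorted wells. Barcodes 17 and 20 of the Dlk1- libraries held 156 Apoe UMIs, 36, 29, 45 and 46 in replicates 1 to 4. The same 2 barcodes in the Dlk1+ libraries, where they lie among the sorted wells and were left out, held 39, 14, 9 and 55 Apoe UMIs and 86, 31, 7 and 100 liver marker UMIs. The 728 other unused barcodes held 73 Apoe UMIs, or 0.10 per barcode and 3085 CPM of their 23663 UMIs, against 3.00 to 6.11 Apoe UMIs per cell in the sorted wells of 7 libraries and 2.42 in Dlk1+ replicate 3.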

How the results depend on the processing

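The number of genes called between sorts was 2 and moved to 1 with the replicate block, with at least 2000 transcripts per barcode and after thinning to 2000 UMIs, to 4 with barcodes 17, 20 to 24 and 29 to 32, and to 5 without Dlk1+ replicates 2 and 3 (chosen after the data were seen); it was 3 without the low-count filter. Leaving out 1 library gave 1 to 19 calls, 19 of them (5 higher, 14 lower) without Dlk1+ replicate 4; no member was among the calls in any setting, and the cause was not tested. The labels name no pairing, so the main fit took none. Libraries of the same number correlated at 0.04 to 0.06 in their deviations from the group means, each best with its own number. Other pairs were at -0.042 to 0.0045, so a shared origin or handling by number is possible and was not tested. With the replicate block Apoe had a log2 fold change of 0.56 (limma-voom adjusted p = 0.83). Apoe ranged from 0.10 to 0.78 over 19 settings (0.35 to 0.78 leaving out 1 library; 0.35 without Dlk1+ replicate 2 or 3), with adjusted p of 0.226 to 0.957. The sign turned for Hmgcs1 with the replicate block (-0.027) and in the range of -0.25 to 0.37 on leaving out 1 library, and for Sqle without Dlk1+ replicates 2 and 3 (0.045) and in the range of -0.036 to 0.17. Among shares at 2000 UMIs, Abca1 turned with another seed (1.08 percentage points, from -1.60), and Hmgcs1 at 1000 UMIs (1.17, from -1.26) and in the range of -2.46 to 0.748 on leaving out 1 library. The share of cells with Apoe kept its sign, at 6.69 to 20.1 points over 13 settings (exact permutation p of 0.0857 to 0.314). The difference in the spread of Apoe was -0.0420 at 1000 UMIs against 0.414, and 0.253 to 0.674 on leaving out 1 library. Of the 10 highest correlates, 2 were shared at 1000 UMIs, 1 without Gm10800 and Gm26870 and 9 with Spearman's rho. Depth limits the 5 rarer members, which had 55 to 106 UMIs each. edgeR and DESeq2 were not run.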
